A study of Mus musculus with 2 samples.

Results

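The genes described here make cholesterol from acetyl-CoA, control that pathway through the transcription factor SREBP2, or move sterols within the cell. They were taken as a fixed list of 29 gene symbols, matched to the array's probes through the transcript accession of each probe. All 29 were found, on 41 probes, among 20886 genes with a probe, and all 29 were measured on both arrays. They fall into 6 genes of SREBP2 control, 8 of the mevalonate and isoprenoid steps, 11 of the steps from squalene to cholesterol and 4 of sterol movement.

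Male wild-type C57BL/6J mice ate either the normal diet (ND) or the high-fat diet (HFD) over 4 weeks, after which liver and adipose tissue were taken. For each tissue 1 Agilent array held both diets, the normal-diet RNA in the green channel (Cy3) and the high-fat RNA in the red channel (Cy5). Per the labels, RNA of 10 livers and of 10 fat samples was combined by diet before labelling, so each channel is a pool. The animals' age, the composition of either diet, the fat depot and the number of animals in each pool are not given in the sources used here.

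Cells make cholesterol when the sterol content of the endoplasmic reticulum is low. SREBP2, encoded by Srebf2, is then escorted by Scap from the endoplasmic reticulum to the Golgi, where the proteases encoded by Mbtps1 and Mbtps2 release its active part, which switches on the genes of the pathway. When sterols are plentiful, the Insig proteins hold Scap and SREBP2 back. Liver is a main site of cholesterol synthesis, while adipose tissue stores much of the body's free cholesterol in its fat droplets and cell membranes.

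All values below are ratios of the high-fat pool to the normal-diet pool within an array, on the log2 scale after background correction and loess normalization, or log2 levels of a channel, which are normalized intensities. With 1 array per tissue and no dye swap there is no spread between animals, no test and no p-value, and diet cannot be told apart from dye. A gene was called at a ratio of at least 2-fold, a log2 ratio of 1. The scanner software gives an error for its own log ratio of each spot, which covers measurement error on 1 array and not animals. This error was averaged over the spots and probes of a gene and set beside the loess ratio, for which it was not made. It had a median of 0.21 on either array, and a ratio over 2 times that error is given as a second, looser rule. The ratio was measured for 13642 genes in liver and 14315 in adipose tissue. In a pool of RNA from whole tissue, fewer cells of a type and less RNA per cell cannot be told apart.

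The promoters are shown for 5 genes to which the results below return: Idi1 and Msmo1, which were brighter in the high-fat pool of both tissues, Hmgcs1 and Insig2, whose ratios had opposite signs in the 2 tissues, and Insig1, the counterpart of Insig2. Each sequence is from RefSeq (mouse build GRCm38.p6) and runs 5′ to 3′ along the gene's strand, from 250 bases before the annotated start to 50 bases after it. The windows lie at chr13:8885356-8885655 (plus strand, Idi1), chr8:64733529-64733828 (minus strand, Msmo1), chr13:119690101-119690400 (plus strand, Hmgcs1), chr5:28071162-28071461 (plus strand, Insig1) and chr1:121332540-121332839 (minus strand, Insig2, the farthest upstream of 3 annotated windows). Capitals mark matches to 1 of 5 short motifs on either strand, which are spelled out after the sequences.
Idi1: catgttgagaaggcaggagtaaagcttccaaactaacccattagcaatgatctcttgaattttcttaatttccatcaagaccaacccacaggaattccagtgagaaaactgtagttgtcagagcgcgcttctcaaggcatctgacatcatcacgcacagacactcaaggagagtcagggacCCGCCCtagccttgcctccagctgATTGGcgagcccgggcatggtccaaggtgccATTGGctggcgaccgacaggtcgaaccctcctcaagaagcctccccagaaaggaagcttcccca
Msmo1: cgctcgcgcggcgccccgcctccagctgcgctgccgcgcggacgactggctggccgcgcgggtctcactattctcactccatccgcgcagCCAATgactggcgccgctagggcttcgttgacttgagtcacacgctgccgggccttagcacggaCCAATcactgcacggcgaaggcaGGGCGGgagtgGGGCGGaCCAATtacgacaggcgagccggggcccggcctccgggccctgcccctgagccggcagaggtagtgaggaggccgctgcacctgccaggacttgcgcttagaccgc
Hmgcs1: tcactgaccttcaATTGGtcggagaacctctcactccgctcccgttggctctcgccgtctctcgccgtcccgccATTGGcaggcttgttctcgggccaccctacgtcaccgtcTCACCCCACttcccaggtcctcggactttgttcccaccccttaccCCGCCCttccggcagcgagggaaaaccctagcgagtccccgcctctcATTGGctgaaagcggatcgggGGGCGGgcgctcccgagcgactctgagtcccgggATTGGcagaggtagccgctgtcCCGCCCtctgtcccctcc
Insig1: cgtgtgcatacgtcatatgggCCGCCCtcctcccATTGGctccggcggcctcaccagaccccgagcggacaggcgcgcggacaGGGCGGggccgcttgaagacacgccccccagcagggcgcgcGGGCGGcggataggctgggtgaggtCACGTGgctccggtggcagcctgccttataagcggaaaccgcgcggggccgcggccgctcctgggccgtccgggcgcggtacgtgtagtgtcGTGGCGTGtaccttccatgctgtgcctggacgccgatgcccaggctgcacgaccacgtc
Insig2: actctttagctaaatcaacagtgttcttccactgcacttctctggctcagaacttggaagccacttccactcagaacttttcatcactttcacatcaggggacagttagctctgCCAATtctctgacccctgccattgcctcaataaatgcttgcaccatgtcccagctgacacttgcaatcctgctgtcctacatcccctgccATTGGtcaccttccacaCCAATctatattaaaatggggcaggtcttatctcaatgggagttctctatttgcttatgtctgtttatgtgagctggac

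The motifs were a sterol regulatory element written as TCACNCCAC, its core CACNCCAC, which is nested in the longer form, the palindromic E-box CACGTG, the CCAAT box, and the GC box GGGCGG, where N is any base. SREBP2 binds sterol regulatory elements and the factors NF-Y and Sp1, known partners of SREBP2 at its targets, bind the CCAAT box and the GC box. Of the 29 genes, 24 had a promoter window in the RefSeq table, and Fdps, Fdft1, Sqle, Stard4 and Npc1 had none. A gene counts as holding a motif when any of its annotated windows does, for the 24 and for all genes alike. The longer element was found in 1 of the 24, Hmgcs1, where it began 137 bases before the start, and in 1.44% of 27025 genes. The core was found in 3 of the 24 (Insig1, Acat2 and Hmgcs1) against 7.12% of all genes. In Insig1 the core lay on the opposite strand 9 bases before the start. The E-box was found in 5 of the 24 (Scap, Insig1, Hsd17b7, Sc5d and Dhcr7) against 8.09% of all genes, and in Insig1 it began 101 bases before the start.

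CCAAT was found in 20 of the 24 genes, against 41.1% of all genes, and GGGCGG in 21 of the 24, against 38.2%. The Idi1 window holds the reverse complement of CCAAT 45 and 14 bases before the start. The Msmo1 window holds CCAAT 160, 96 and 55 bases before the start, and a GC box at 73 and at 62 bases. The Insig2 window printed here has CCAAT letters and no GGGCGG, and Insig2 counts among the 21 through another of its 3 windows. A match is a description of these letters only, and a window without one shows only that the letters are not in those 300 bases.

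In liver, the gene that rose past 2-fold on the high-fat diet was Idi1, an enzyme of the isoprenoid steps, at 2.13-fold. It was 1 of 29 (0 were at least 2-fold lower), against a background of 0.491% of all measured genes higher by at least 2-fold and 0.579% lower by as much. By the looser rule, 5 of the 29 were higher, Idi1, Sqle, Msmo1, Stard4 and Fdft1, against 4.53% of all genes, and 1 was lower, Insig2, against 3.3%. Of the 29, 21 had a ratio above 0, which is 72.4% against 52.3% of all measured genes, with a median of 0.10 against 0.01.

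The 6 genes of SREBP2 control had a median ratio of 0.00 in liver, with 3 above 0. Srebf2 itself was dim and nearly equal in both pools, at a log2 level of 7.25 on normal diet and 7.22 on high-fat diet, a ratio of -0.04 with a software error of 0.31. The ratio was 0.04 for Scap, -0.05 for Mbtps1 and 0.22 for Mbtps2, none of them past 2 times its error. Insig1, which is both a target and a brake of SREBP2, was at 9.53 and 9.62, a ratio of 0.09.

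Insig2, the other brake, whose liver transcript is known to be lowered by insulin, stood at the other end of the list. Its level was 14.33 on normal diet and 13.41 on high-fat diet, a ratio of -0.92 with an error of 0.22, which is 1.89-fold lower and short of the 2-fold rule. It ranked 99 from the lowest of 13642 genes. Its 2 probes, which are annotated to different transcripts of the gene, gave -0.70 and -1.14, so both were lower. The raw spot signals of the probe at -1.14 were 14028 on normal diet and 12758 on high-fat diet, while the median spot of the array was brighter in the high-fat channel, at 127 against 93. The raw signals of the probe at -0.70 were 20254.5 and 26091, brighter in the high-fat channel, so its lower ratio rests on the normalization. Most of the -1.14 of the other probe does so too, since its raw signals differed little.

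Among the 8 genes of the mevalonate and isoprenoid steps, 5 had a ratio above 0 in liver and the median was 0.05. Idi1 encodes the isomerase that interconverts the pathway's basic isoprenoid units. Its single probe had spot signals of 1445 on normal diet and 5692 on high-fat diet, over local backgrounds of 26 and 51. After normalization its level was 10.95 and 12.04, a ratio of 1.09 with an error of 0.23, which ranked 49 from the highest. Mvd, the decarboxylase one step earlier, was next at 7.39 and 7.80, a ratio of 0.41 that was not past 2 times its error of 0.23.

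The rest of this group lay close to 0 in liver. Hmgcs1, the synthase that feeds the rate-limiting step of the pathway, had the lowest ratio of the group, at -0.23, with levels of 12.77 and 12.54. The ratio was 0.18 for the mevalonate kinase Mvk and -0.15 for the phosphomevalonate kinase Pmvk. It was 0.06 for the thiolase Acat2, 0.04 for the farnesyl diphosphate synthase Fdps and -0.14 for the geranylgeranyl diphosphate synthase Ggps1. None of these 6 was past 2 times its error.

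All 11 genes of the steps from squalene to cholesterol had a ratio above 0 in liver, from 0.06 to 0.78 with a median of 0.24, and 0 of the 11 reached 2-fold. Sqle, the squalene epoxidase and a slow step of the pathway, had spot signals of 364.5 and 1074 and levels of 9.08 and 9.86. Its ratio was 0.78 with an error of 0.22, which is 1.72-fold. Msmo1, an oxidase that removes methyl groups from sterol intermediates, was at 11.96 and 12.71, a ratio of 0.74 with an error of 0.22 or 1.68-fold. Fdft1, the squalene synthase at the branch to sterols, was at 10.30 and 10.83 on the 1 of its 2 probes that was above background, a ratio of 0.53 with an error of 0.21.

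These 3 were the members of the group past 2 times their error, and the other 8 were smaller. The lanosterol demethylase Cyp51 had a ratio of 0.39 and the desaturase Sc5d one of 0.37. The dehydrogenase Hsd17b7 was at 0.24, the lanosterol synthase Lss at 0.17 and the dehydrogenase Nsdhl at 0.16. The sterol isomerase Ebp, the brightest of the group in liver by its own level of 15.05 on normal diet, had a ratio of 0.10, with Dhcr7, the last reductase on one branch of the pathway, at 0.09 and the reductase Tm7sf2 at 0.06.

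Of the 4 genes of sterol movement, Stard4, a soluble carrier of cholesterol between membranes, was at 8.53 and 9.13 in liver, a ratio of 0.60 with an error of 0.27 or 1.51-fold. Its 2 probes gave 0.87 and 0.32, the largest gap between probes of a member on the liver array (0.55). Tmem97, a partner of the lysosomal cholesterol exporter Npc1, had a ratio of 0.12. The ratio was -0.01 for Npc1 and -0.15 for Npc2, which hands cholesterol to Npc1 in the lysosome.

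**Figure D1:**
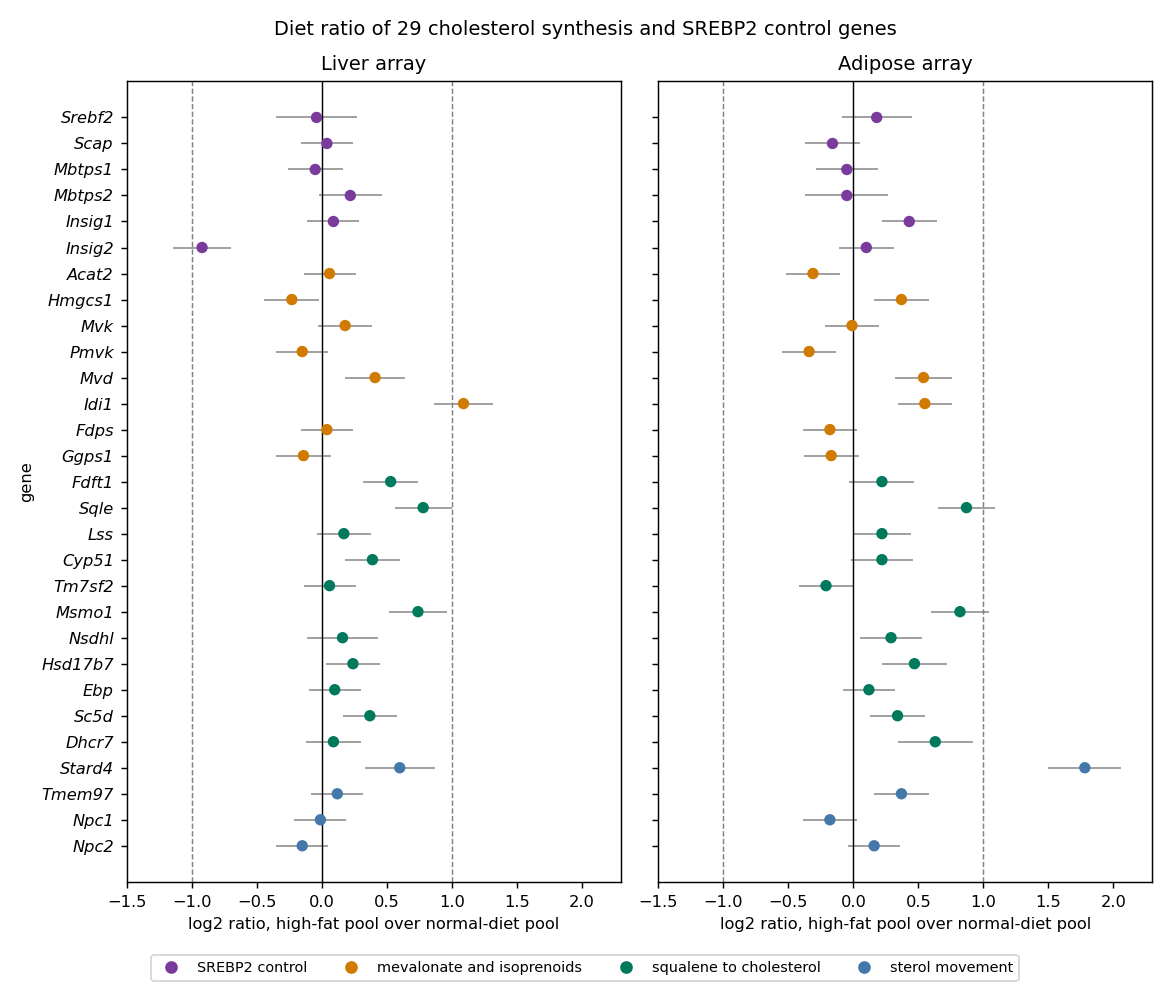
Log2 ratio of the high-fat pool to the normal-diet pool for each of the 29 genes on the liver array (left) and the adipose array (right), coloured by role. Bars are 1 software error on either side, not animals, and dashed lines mark 2-fold. In liver Idi1 lies past the upper line and Insig2 short of the lower one, and in adipose tissue Stard4 lies past the upper line.

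The plot of ratios by gene shows that 20 of the 29 members were within 2 software errors of 0 in both tissues. Of all measured genes, 4.53% were higher and 3.3% lower past 2 errors in liver, and 13.7% each way in adipose tissue. The liver result depended on how local backgrounds were treated. With all local backgrounds as deposited, Idi1 had a ratio of 0.80 and no longer reached 2-fold. Under that setting Sqle was at 0.24, Stard4 at 0.26, Fdft1 at 0.27, Cyp51 at 0.05 and Mvd at 0.03, the median of the 29 was 0.01, and 17 of 29 lay above 0. Insig2 was at -0.94 and Msmo1 at 0.58 there. With median centring in place of loess Insig2 was at -0.30, against -0.92, and with its brighter probe alone at -0.70. With the deposited backgrounds, 10 of the 11 squalene-step genes were above 0, but their median was 0.07, against 0.24 in the main setting. By the scanner software's own log ratio 9 of the 11 were above 0, with a median of 0.25.

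Centring each array on its median in place of loess moved the median of all genes to 0.32 in liver and 0.69 in adipose tissue. Of all genes called at 2-fold, the share called higher was then 94.1% against 45.9% under loess in liver, and 87.2% against 45.1% in adipose tissue. The median of the 29 relative to that of all genes was 0.21 in liver and 0.11 in adipose tissue with median centring, against 0.09 and 0.23 with loess. In liver, 10 of the 11 squalene-step genes then lay above the median of all genes, and in adipose tissue 6 of the 11.

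The defining markers of liver cells were bright in both liver pools. All 15 hepatocyte markers were measured, with a summed log2 level of 20.33 on normal diet and 20.72 on high-fat diet and a median ratio of 0.38. Skeletal muscle markers moved with diet on the same array: of 13 listed, 12 were measured, all 12 were lower in the high-fat pool and 9 at least 2-fold, with a summed log2 level of 15.86 and 14.39. For macrophages 9 of 10 markers were measured, with a median ratio of 0.11. The part of these markers in the ratios of the 29 genes was not tested.

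Lists of neighbouring pathways are given for liver beside the 29. Of 15 genes of sterol export, storage and sensing, 14 were measured, 0 reached 2-fold and the median ratio was -0.07. The farthest from 0 were Abca1, a cholesterol exporter, at 0.44, Nr1h2, a sterol-sensing nuclear receptor, at -0.37, and Abcg8, which sends sterols into bile, at 0.33. Of 13 genes of fatty acid synthesis, which SREBP1 controls, 12 were measured, 0 reached 2-fold and the median was -0.02. The stearoyl-CoA desaturase Scd1 was at -0.62, the fatty acid desaturase Fads2 at 0.52 and Thrsp, a factor of fat synthesis, at 0.51.

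All 10 genes that degrade, anchor or otherwise tune SREBP and its partners were measured in liver, 0 reached 2-fold and the median was 0.02. Erlin1, a protein of the endoplasmic reticulum membrane, was at 0.43. All 12 genes of the side branches that use isoprenoids for ubiquinone, dolichol and protein prenylation were measured, 0 reached 2-fold and the median was -0.02. Pdss2 was at -0.34, Rabggta at 0.26 and Fnta at -0.19. The squalene-step median of 0.24 stood beside medians of -0.07 to 0.02 in these 4 lists. With all local backgrounds as deposited the squalene-step median was 0.07, and the medians of the 4 lists under that setting are not given here.

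In adipose tissue, the gene that rose past 2-fold on the high-fat diet was the sterol carrier Stard4, at 3.43-fold. It was 1 of 29 (0 were at least 2-fold lower), against a background of 4.23% of all measured genes higher by at least 2-fold and 5.13% lower by as much, so that the count is near the background. By the looser rule, 7 of the 29 were higher, Stard4, Sqle, Msmo1, Dhcr7, Idi1, Mvd and Insig1, against 13.7% of all genes, and 0 were lower, against 13.7%. Of the 29, 19 had a ratio above 0, which is 65.5% against 49.3% of all measured genes, with a median of 0.22 against -0.01.

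**Figure D2:**
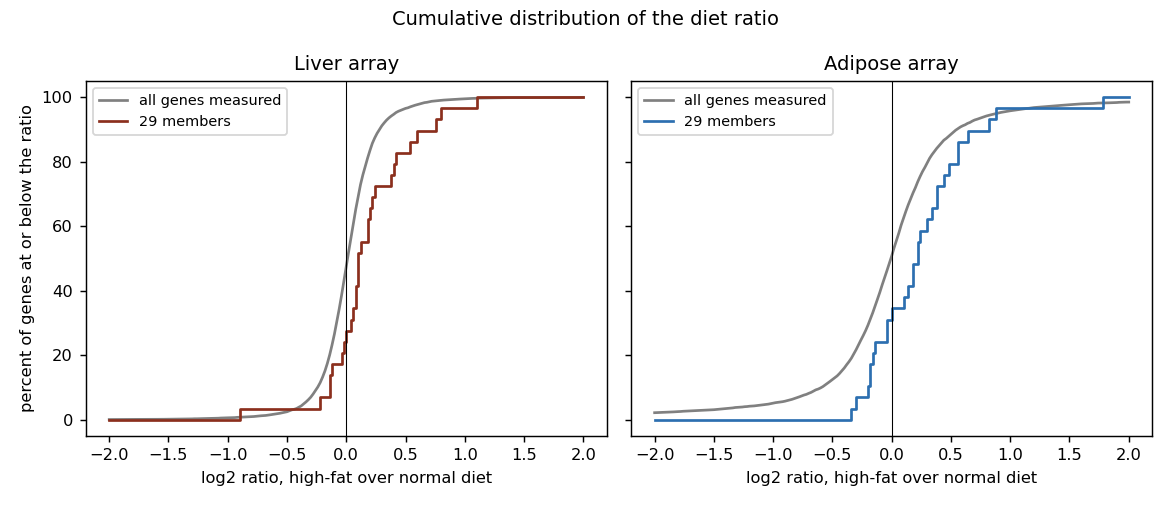
Share of genes (percent) at or below each log2 ratio of high-fat to normal diet, for the 29 genes in colour and all measured genes in grey, on the liver array (left, 13642 genes) and the adipose array (right, 14315 genes). Around a ratio of 0 the coloured line lies below the grey one on both arrays, with medians of 0.10 against 0.01 in liver and 0.22 against -0.01 in adipose tissue.

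The cumulative plot also shows the broader spread of all genes on the adipose array, where 25% of genes lay below -0.26 and 25% above 0.24, against -0.11 and 0.13 in liver. The members' range was -0.34 to 1.78 in adipose tissue and -0.92 to 1.09 in liver.

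Stard4 ranked 260 from the highest of 14315 genes in adipose tissue. Its measured probe had spot signals of 227 on normal diet and 3840 on high-fat diet, and its level was 8.84 and 10.62, a ratio of 1.78 with an error of 0.28. The other probe was below background in the normal-diet channel and is not part of that value. The remaining genes of sterol movement were smaller, with a ratio of 0.37 for Tmem97, 0.16 for Npc2 and -0.18 for Npc1.

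Of the 11 genes from squalene to cholesterol, 10 had a ratio above 0 in adipose tissue, from -0.21 for Tm7sf2 to 0.87 for Sqle with a median of 0.29, and 0 reached 2-fold. Sqle had spot signals of 407 and 3806 and levels of 9.76 and 10.63, a ratio of 0.87 with an error of 0.22 or 1.83-fold. Msmo1 was at 11.28 and 12.10, a ratio of 0.82 with an error of 0.22 or 1.76-fold. Dhcr7 was dim, at 6.83 and 7.46, and its ratio of 0.63 had an error of 0.29. These 3 were the members of the group past 2 times their error.

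The ratio was 0.47 for Hsd17b7, 0.34 for Sc5d and 0.29 for Nsdhl in adipose tissue. It was 0.22 for Lss, Cyp51 and Fdft1, and 0.12 for Ebp. The 2 probes of Fdft1 gave -0.05 and 0.49 there, so the mean over them is uncertain in sign. The probe at -0.05 was dim, with spot signals of 81 and 188, and was not above background in liver. The probe at 0.49, with an error of 0.21, is the one measured on both arrays. The Dhcr7 ratio depended on the processing and came to 0.96 with a smaller offset of 10 in the background correction and 1.62 by the software's log ratio, which passes 2-fold.

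Among the mevalonate and isoprenoid genes of adipose tissue, 3 of 8 had a ratio above 0 and the median was -0.09. Idi1 was at 10.16 and 10.72, a ratio of 0.55 with an error of 0.21 or 1.47-fold, and Mvd at 7.75 and 8.29, a ratio of 0.54 with an error of 0.22. Hmgcs1 was at 13.48 and 13.85, a ratio of 0.37. These 3 were the genes above 0, and the other 5 lay below it. The ratio was -0.34 for Pmvk, -0.31 for Acat2, -0.18 for Fdps, -0.17 for Ggps1 and -0.01 for Mvk.

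Of the 6 control genes, 3 were above 0 in adipose tissue, with a median of 0.02. Insig1 was at 8.18 and 8.61, a ratio of 0.43 with an error of 0.21, past 2 times that error. Srebf2 was at 7.18 and 7.36, a ratio of 0.18 with an error of 0.27. Insig2 was at 11.65 and 11.75, a ratio of 0.10, but its probes had opposite signs, 0.43 and -0.23, the largest gap between probes of a member on that array (0.66). The ratio was -0.16 for Scap, -0.05 for Mbtps1 and -0.05 for Mbtps2.

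**Figure D3:**
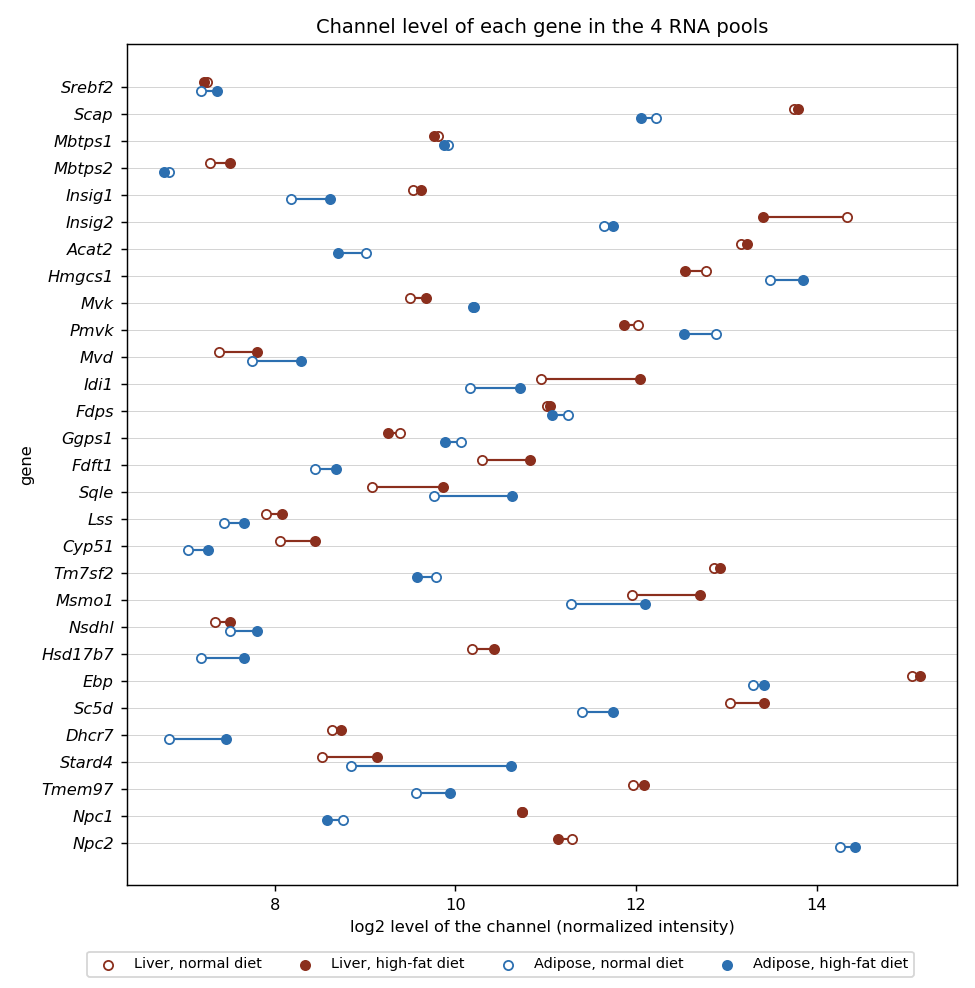
Log2 level (normalized intensity) of each gene in the 4 RNA pools, with open circles for normal diet and filled circles for high-fat diet, liver in red and adipose tissue in blue. Lines join the pools of 1 array. The longest lines are those of Stard4 in adipose tissue (8.84 to 10.62) and of Idi1 (10.95 to 12.04) and Insig2 (14.33 to 13.41) in liver.

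The plot of levels by pool shows each gene against itself. Stard4 and Fdft1 rest on different sets of probes in the 2 tissues, so their liver and adipose levels there are not on 1 scale. Levels of different genes depend on their probes and are not compared. In liver 5 members and in adipose tissue 8 had a normal-diet level below 8, Srebf2 among them on both arrays, where a signal near background makes the ratio less certain.

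Markers of other tissues moved strongly on the adipose array. All 14 adipocyte markers were measured, at log2 levels from 9.53 (Lep) to 18.73 (Cfd) on normal diet. Their summed log2 level was 20.11 on normal diet and 19.93 on high-fat diet. Their median ratio was 0.26, with a range from -1.70 for Cfd to 1.66 for Lep. All 15 hepatocyte markers were measured there, and 14 were at least 2-fold lower in the high-fat pool, with a summed level of 16.98 and 12.92. All 15 small intestine markers were measured, and 14 were at least 2-fold higher, with a summed level of 15.13 and 19.21. Fabp2, an enterocyte fatty acid binding protein, had a ratio of 6.42 and Ambp, a secreted liver protein, one of -5.59.

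Exocrine pancreas markers were lower in 13 of 14 and at least 2-fold lower in 12, with a summed level of 14.98 and 12.75. Of 11 markers of the male reproductive tract 6 were measured and all 6 were at least 2-fold lower, at 16.38 and 13.00. Of 13 skeletal muscle markers 8 were measured and 5 were at least 2-fold lower, at 13.94 and 11.07. Of 10 cell division genes 7 were measured and all 7 were higher, 5 of them at least 2-fold, at 10.90 and 12.29. For macrophages 8 of 10 markers were measured, with a median ratio of 0.19. The part of these markers in the ratios of the 29 genes was not tested here either.

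**Figure D4:**
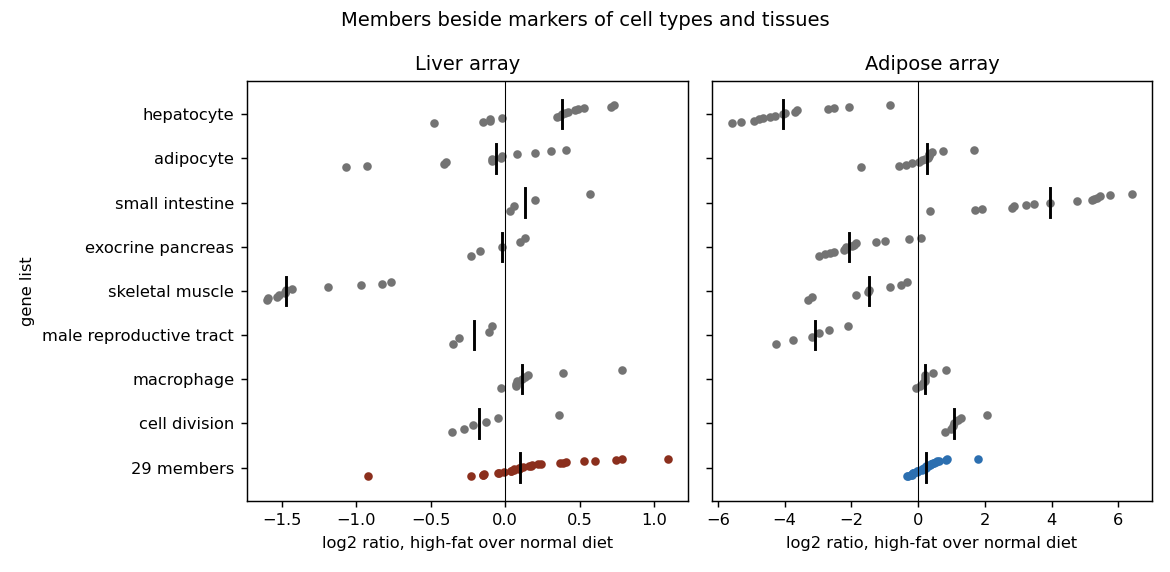
Log2 ratio of high-fat to normal diet for each measured marker of a cell type or tissue (grey points) and for the 29 genes (coloured points), with the median as a vertical bar, on the liver array (left) and the adipose array (right). The horizontal scales of the panels differ. On the adipose array the small intestine markers have a median of 3.96 and the hepatocyte markers one of -4.06, against 0.22 for the 29 genes.

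The plot of markers shows that the 29 genes ran from -0.34 to 1.78 on the adipose array, while the small intestine markers ran from 0.36 to 6.42 and the hepatocyte markers from -5.59 to -0.83. In liver the range of the 29 was closer to that of the hepatocyte markers, from -0.48 to 0.73, and the skeletal muscle markers lay lowest, with a median of -1.47.

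In the neighbouring lists 4 genes passed 2-fold in adipose tissue. Of all measured genes on that array, 4.23% were higher and 5.13% lower by as much, so that the count is near the background. For sterol export, storage and sensing 14 of 15 genes were measured there, with a median of -0.08. Abcg5, an exporter found in intestine and liver, rose with a ratio of 3.46, and Soat2, the cholesterol-esterifying enzyme of the same tissues, with 2.65. On that array the small intestine markers had a median of 3.96 and the hepatocyte markers one of -4.06. The part of either marker list in the ratios of Abcg5 and Soat2 was not tested. The exporter Abcg1 was at -0.74. All 13 fatty acid synthesis genes were measured, with a median of 0.26. Fasn, the fatty acid synthase, rose with a ratio of 1.16, the desaturase Fads1 fell by 1.0, just past 2-fold, and the lipase Pnpla3 was at 0.63.

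Of the 10 tuning factors of SREBP 8 were measured in adipose tissue, 0 reached 2-fold and the median was -0.11, with Pgrmc1 at -0.88 and Erlin2 at 0.60. Of the side branches all 12 genes were measured, 0 reached 2-fold and the median was 0.02, with Pdss1 at 0.75, Srd5a3 at 0.47 and Dhdds at -0.42.

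Between the tissues, the diet ratios of the 29 genes were compared gene by gene. Of the 29, 15 were above 0 in both tissues, 4 below 0 in both, 6 above 0 in liver only and 4 above 0 in adipose tissue only. The share above 0 in both was 51.7%, against 28.6% of the 12689 genes measured on both arrays. By the looser rule 4 of the 29 were higher in both tissues, Idi1, Msmo1, Sqle and Stard4, against 1.51% of all genes. Fdft1 was not among them on its adipose mean of 0.22. On its 1 probe measured on both arrays Fdft1 was at 0.53 in liver and 0.49 in adipose tissue, each with an error of 0.21. Of the 29, 20 were past the looser rule in neither tissue, a share not given here for all genes. Across the 29 genes the ratios of the tissues had a Pearson correlation of 0.55 and a Spearman correlation of 0.64, against 0.09 and 0.13 across all genes. These describe genes that share 2 arrays, dyes and probe sequences, and genes are not independent replicates.

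**Figure D5:**
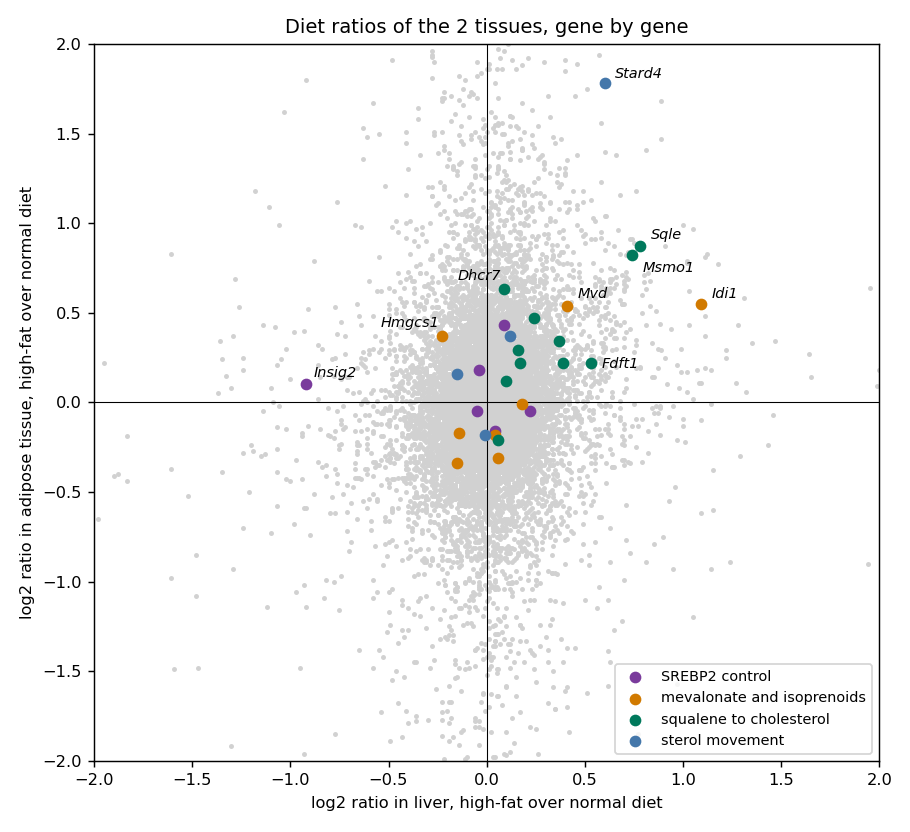
Log2 ratio of high-fat to normal diet in adipose tissue (vertical) against liver (horizontal) for the 29 genes, coloured by role, over all genes measured on both arrays in grey. Grey points outside -2 to 2 on either axis are not drawn. Sqle, Msmo1 and Idi1 lie to the upper right, Stard4 at the top, and Insig2 and Hmgcs1 to the left of 0 in liver and above 0 in adipose tissue.

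The plot of one tissue against the other separates the genes that were high in both from those that differed. The adipose ratio was at least 2-fold above the liver ratio for 2 of the 29, Stard4 and Insig2, against a background of 3.77% of all genes, and at least 2-fold below it for 0, against 4.45%. Stard4 differed by 1.18 (0.60 in liver and 1.78 in adipose tissue) and Insig2 by 1.02 (-0.92 and 0.10), with combined software errors of 0.39 and 0.30. Hmgcs1 differed by 0.60 (-0.23 and 0.37) with a combined error of 0.29. The other 26 genes differed by less than 2 combined errors, and the median difference over the 29 was 0.03, against -0.01 over all genes. For Stard4 and Fdft1 the measured probes differed between the arrays. Stard4 on the 1 probe measured on both was at 0.87 in liver and 1.78 in adipose tissue, a difference of 0.90 that is short of 2-fold. With only probes measured on both arrays, a comparison added after the values were seen, the 2-fold count was 1 of 29 (Insig2), against 3.74% of all genes. On those probes 3 of the 29 genes differed by more than 2 combined errors, against 2255 of 12662 genes. With median centring the 2-fold count was 4, for which the share of all genes is not given here.

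The levels of each gene in the 2 tissues were compared on the probes measured on both arrays, a choice made after the values were seen, since Stard4 and Fdft1 rest on different probes otherwise. On normal diet, 19 of the 29 genes were brighter in liver and 10 in adipose tissue. This comparison is across arrays and assumes that brightness is distributed alike on both. At least 2-fold brighter in liver were 13, which is 44.8% against 16.7% of all genes, and at least 2-fold brighter in adipose tissue was 1, which is 3.45%, against 2274 of 12662 genes. With the brightest probe of each gene in place of the mean over probes, that count was 5, Npc2 with Mbtps1, Mvk, Pmvk and Ggps1. Apart from Npc2 these lay just past 2-fold, with liver minus adipose levels from -1.03 (Pmvk) to -1.10 (Ggps1). The share of all genes by the brightest probe is not given here, so the count is not read as a trait of the members. Over all measured probes of each array, 18 were brighter in liver, and the counts at 2-fold were 13 and 1. Acat2 had the widest gap, with a level of 13.16 in liver and 9.01 in adipose tissue or 17.7-fold, though its probe may also bind its close mouse relative Acat3. Tm7sf2 was 8.43-fold, Hsd17b7 8.01-fold, Insig2 6.41-fold and Tmem97 5.28-fold brighter in liver.

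Npc2, the lysosomal carrier, was the gene at least 2-fold brighter in adipose tissue, at 14.26 against 11.29 or 7.81-fold. On high-fat diet 13 genes were at least 2-fold brighter in liver (44.8% against 16.5% of all genes) and 2, Npc2 and Hmgcs1, in adipose tissue (6.9% against 18.5%). Stard4 on its shared probe was at 10.20 in liver and 8.84 in adipose tissue on normal diet, and at 11.07 and 10.62 on high-fat diet. The hepatocyte markers were present in the normal-diet adipose pool at a summed level of 16.98, and their part in the adipose levels of the 29 genes was not tested.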

How the data were processed

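Total RNA pools of liver and of adipose tissue from mice on a normal or a high-fat diet were labelled with Cy3 and Cy5 and hybridised to 1 Agilent 2-colour array per tissue. The deposited scanner files hold median spot and local background intensity per channel, not normalized, and a log10 ratio with its error made by the scanner software, all per the file headers. The headers name Feature Extraction 11.5.1.1 with protocol GE2_1105_Oct12, whereas version 8.5.1.1 stands in the submitters' processing notes.

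Where the software flags a local background as an outlier, the channel's median background on that array was used. Intensities were then background-corrected by normexp (offset 50) and loess-normalized, control spots having weight 0, in limma 3.58.1 (R 4.3.3). The resulting log2 values, computed from the deposited intensities, were averaged over spots and then probes of a gene, and channel levels were scaled across arrays with Aquantile. The correction and loess steps were also run on a simulated array made from the liver intensities. That run does not cover the wide ratios of the adipose array, and its result is not reported here. Probes well above background in both channels, outliers left out, counted as measured, which left 23041 of 39418 probes (58.5%) in liver and 23189 of 39427 (58.8%) in adipose tissue. Of 39429 probes, 27508 matched a gene of the RefSeq table by accession. No spot was saturated. The median spot signal was 93 to 274 over backgrounds of 28 to 52.5, and the number of arrays limits the precision.

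No test was possible with 1 array per tissue. Genes were called at 2-fold, and ratios over 2 times the software's error were counted too. All 29 genes are named, as are up to 3 genes with the largest ratio of each neighbouring or marker list. Some genes that this rule takes are left unnamed and are not reported here. The members and lists were chosen with earlier results of these data known. The 10 alternatives fixed at the start concern background correction, local backgrounds, normalization, filters, probe choice, a running median over 501 genes and the call rule. Python 3.11.15 with pandas 2.3.3 did the summaries.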

Additional observations from a re-analysis of the deposited data

Results flagged for a closer look

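Both genes here had ratios of opposite sign in the 2 tissues, with a difference larger than 2 combined software errors. On the probes measured on both arrays 3 of the 29 genes passed that rule on the difference, against 2255 of 12662 genes, so passing it does not set the members apart. Insig2, a brake on SREBP2, had a log2 ratio of high-fat to normal diet of -0.92 in liver and 0.10 in adipose tissue, a difference of 1.02 (adipose minus liver). The sign of Insig2 in adipose tissue is uncertain, since its error there was 0.21 and its 2 probes gave 0.43 and -0.23. Hmgcs1, which makes the substrate of the rate-limiting enzyme, had -0.23 in liver and 0.37 in adipose tissue, a difference of 0.60. Neither Hmgcs1 ratio was past 2 times its own error of 0.21. The difference was not tested across animals, since each tissue has 1 array of pooled RNA. With median centring in place of loess Insig2 was at -0.30 in liver and 1.12 in adipose tissue, and Hmgcs1 was at 0.29 in liver and 1.49 in adipose tissue, both above 0.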

How the results depend on the processing

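In liver, 1 of the 29 genes was called higher and 0 lower. The number higher was 0 with all local backgrounds as deposited, 2 by the scanner software's log ratio, 3 with median centring and 5 by the rule of 2 software errors, by which 1 was lower. Of all 13642 genes, the number higher under these settings was 20, 138, 445 and 618, in that order. By the rule of 2 errors 450 of all genes were lower. The liver median of 0.10 became 0.53 with median centring. In adipose tissue 1 gene was called higher, against 2 by the software's log ratio, 12 with median centring and 7 by the rule of 2 errors. Of all 14315 genes, the number higher there under these settings was 901, 4208 and 1954, in that order. The adipose median of 0.22 became 0.81 with median centring. The count of 2 genes whose adipose ratio was at least 2-fold above the liver ratio became 4 with median centring and 1 with a filter on either channel, with no filter, with the brightest probe of a gene, with the running median subtracted or with only probes measured on both arrays, the last of these added after the values were seen. Apart from the last, the shares of all genes for these counts are not given here. The 1 gene at least 2-fold brighter in adipose tissue on normal diet became 5 with the brightest probe, an alternative chosen after seeing the data and without a share for all genes here. The cause was not tested in any of these.

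Median centring moved all genes along with the members, as given above. Of all genes called at 2-fold in liver, the share higher was 45.9%, and it was 59.5% with a filter on either channel and 56.9% with no filter. Of the single-gene values, 28 in liver and 18 in adipose tissue moved by more than their error, 1 and 0 lost their call, 3 and 12 gained one, and 0 called values changed sign on either array. Dim genes limit the precision, Srebf2, Mbtps2, Mvd, Lss and Nsdhl in both tissues. No paired analysis was possible because each tissue has 1 array and no replicates.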

Other observations

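A list of 14 circadian clock genes, added after the values were seen, was set beside the 29 genes, since the sources used here do not give the time of sampling. In liver 12 were measured, with 4 at least 2-fold higher and 1 lower in the high-fat pool. The clock output gene Dbp had a log2 ratio of 3.52 and the core clock gene Arntl one of -1.95. In adipose tissue 14 were measured, with 0 higher and 1 lower, Hlf at -1.11. The relation of these genes to the ratios of Insig2, Idi1 or the other members was not tested.

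For 10 of the 29 genes more than 1 probe was measured on each array. The probes of a gene had opposite signs for 1 gene in liver and 3 in adipose tissue, and the median gap between the highest and lowest probe was 0.10 and 0.18.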
